A study of Homo sapiens with 12 samples.

Results

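Genes at the start of the short arm of chromosome 6, bands 6p25 to 6p22, were examined one by one in HCT116, a human colon carcinoma cell line, with and without MTHFD2, a mitochondrial enzyme of one-carbon folate metabolism. Members were all genes of chromosome 6 whose annotated start lay no further in than the end of LINC01012, a noncoding RNA gene that starts at position 27694035 (GRCh38), and that had at least 10 counts in 3 or more of the 12 libraries. GMDS was left out by the same rule. This gave 158 of the 60648 genes counted, from 543 genes that start in the stretch, of which 384 fell below the count rule. The stretch was chosen by the knock-out against wild-type fold changes of these same libraries, in which its genes were low, so every knock-out against wild-type value below is a description of the members and carries no test. Of the 158 members, 115 were protein coding, 155 passed the filter for model fitting, and 103 of those had a mean of at least 1 CPM (counts scaled to a common library total). H3C1, RPL15P3 and ENSG00000288548 were not fitted.

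Poly-A RNA was sequenced from 4 groups of 3 libraries. Wild-type (WT) HCT116 cells and MTHFD2 knock-out (KO) cells made with CRISPR-Cas9 were each harvested at an initial time, right after the knock-out was generated, and at a final time after 2 months of culture. All cells grew in DMEM with fetal bovine serum. The knock-out was 1 single clone, so a feature of that clone and an effect of losing MTHFD2 cannot be told apart, and differences between libraries measure the spread within a culture lineage. DNA copy number was not analysed here.

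Most genes on an autosome are transcribed from both copies, and the amount of RNA of such a gene often follows the number of copies. Some genes respond otherwise, because feedback loops, chromatin state or an unequal use of the parental copies set their level. The distal short arm of chromosome 6 holds forkhead transcription factor genes, a serpin cluster, genes for nuclear, ribosomal and mitochondrial proteins, the butyrophilin cluster, and the largest cluster of replication-dependent histone genes. Messages of those histone genes mostly end in a stem-loop instead of a poly-A tail, so poly-A selected libraries hold only the part that carries a tail.

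Library totals ran from 38597809 to 40017561 counts, a highest-to-lowest ratio of 1.037. Levels are given as CPM scaled with TMM factors, as mean ± SD (n = 3), and are compared between libraries and not between genes, since they are not per length. MTHFD2 RNA was 413 ± 41.2 CPM in the initial WT group and 137 ± 9.1 CPM in the initial KO group, with 355 ± 32.4 CPM and 137 ± 16.7 CPM at the final harvest. The epithelial markers EPCAM (307 to 514 CPM), KRT8 (843 to 1371 CPM) and KRT18 (366 to 608 CPM) were present in all 12 libraries, while the leukocyte marker PTPRC had at most 2 counts and the fibroblast marker COL1A2 at most 1 count in any library. CDH1, the epithelial cadherin, was lower in the KO groups (117 ± 12.3 CPM initial, 162 ± 13.6 CPM final) than in the WT groups (236 ± 43 and 219 ± 35.6 CPM). Of the other epithelial markers, CDX2 ran from 10.7 to 16.5 CPM and VIL1 had at most 12 counts in any library. COL1A1, a collagen gene, ran from 36.2 to 77.3 CPM, and the endothelial marker PECAM1 had at most 22 counts. VIM, a mesenchymal marker, ran from 3.66 to 12.1 CPM and was higher in the KO groups (10.9 ± 1.44 CPM initial, 7.91 ± 0.377 CPM final) than in the WT groups (4.74 ± 0.511 and 4.05 ± 0.35 CPM). The part of CDH1 and VIM in the results was not tested. In bulk libraries, fewer cells of a kind and less RNA per cell cannot be told apart.

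The summed level of the members was 4152, 3917 and 4172 CPM in the initial WT libraries and 1820, 1903 and 1906 CPM in the initial KO libraries. At the final harvest it was 4068, 4267 and 4357 CPM in WT and 1994, 1913 and 1931 CPM in KO. Every KO library lay far below every WT library, and the 3 KO libraries of a harvest lay within a narrow range of each other. Over the 103 members at 1 CPM or more, the median member stood at 48.6% of its WT level at the initial harvest and at 47.2% at the final harvest. The medians on the log2 scale were -1.04 and -1.08, where -1 is 50%, while the median over all 18289 genes tested was 0.00 at both harvests. Over all 155 fitted members the medians were -1.08 and -1.09. The other 546 genes of chromosome 6 at 1 CPM or more had medians of -0.05 and -0.04.

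Group ranges of KO and WT did not overlap, with KO lower, for 136 of the 155 fitted members at the initial harvest, where 18.4% of all genes tested met this, and for 138 at the final harvest, where 17.2% did. Nothing is read from that contrast, because it chose the stretch. The spread among the members is of more interest. The SD of the log2 fold change over the 103 members was 0.62 initially and 0.58 finally, against a median standard error of 0.116 and 0.117 for a single member, so members differed from each other by more than the error of one estimate. An interval of 2 standard errors either side held -1 at both harvests for 34 of the 103 members. It lay under -1 at both harvests for 22 members and over -1 at both for 9. Values at the 2 harvests went together across members (Pearson's r = 0.84 over 103 genes, given as a description, since neighbouring genes share libraries and KO clone), and the median absolute difference between harvests was 0.17.

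**Figure D1:**
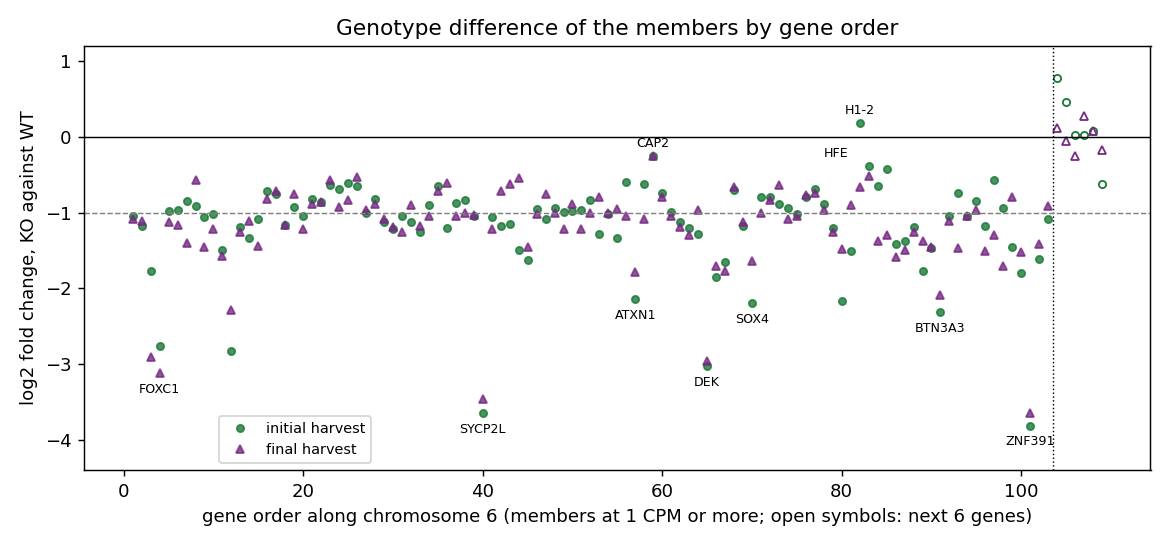
Log2 fold change of KO against WT (vertical axis) for the 103 members at 1 CPM or more in their order along chromosome 6 (horizontal axis), at the initial and the final harvest, with the next 6 genes past the limit as open symbols. Most members lie near -1, with medians of -1.04 and -1.08, single genes such as ZNF391, SYCP2L, DEK and FOXC1 drop far below, and the open symbols lie near or above 0 except ZSCAN16 at the initial harvest (-0.62).

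No window of the stretch had a median near 0. In windows of 5 Mb the median log2 fold change at the initial harvest was -1.04, -0.90, -1.05, -1.16, -0.88 and -1.19 from the telomere inwards, and at the final harvest -1.16, -0.92, -1.0, -1.04, -0.98 and -1.38. The first member, DUSP22 (chr6:291630-351355), a dual-specificity phosphatase, stood at 48.6% and 47.2% of WT. EXOC2, an exocyst subunit, followed at 44.1% and 46.2%. At the inner end, LINC01012, the last gene inside the limit, was at 47.4% and 53.2%. Just past it, H3C10 (chr6:27810064-27811300), a histone H3 gene, was at 172% and 108%, H2BC15, a histone H2B gene, at 138% and 96.8%, and ZSCAN16-AS1 at 102% and 84.2%.

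A member was placed near 50% when its log2 fold change lay between -1.5 and -0.5 at each harvest, which is 35.4% to 70.7% of WT. By this measure 91 of the 155 fitted members stayed near 50%, 23 lay further below at both harvests, 8 stayed above at both, and 33 changed place between harvests. Among all genes tested the shares were 3.93% near 50%, 0.864% further below and 86.3% above. At 1 CPM or more the counts were 78 near 50%, 12 further below, 1 above and 12 that changed place, so most of the members above the limit were thinly counted genes. Of the 23 further below, 11 were under 1 CPM. All of these except ENSG00000272341 met the count rule only with their WT libraries, among them GMDS-DT, ELOVL2 and LARRPM. A thinly counted gene that is low in KO can be a member only by being high in WT. The count rule thus helps fill this class, and nothing is read from its distance to the share of all genes. Of the 33 that changed place, 13 went from further below to near 50%, 6 went the other way, 9 went from above to near 50% and 4 from near 50% to above, and 1 went from further below to above. Since 92 of the 158 members overlap another gene and the strand setting of the counting is not given in the sources used here, reads of overlapping genes cannot be told apart.

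Genes for RNA processing, ribosome assembly and translation kept closest together. All 12 fitted genes of that list stayed near 50%, with medians of -0.87 and -0.98 and single values between -1.22 and -0.61 over both harvests. The 12 include PSMG4, a proteasome assembly chaperone that the list also held. PRPF4B, a kinase that associates with the spliceosome, was at 170 ± 27.2 CPM in WT and 89.6 ± 1.1 in KO initially, or 52.7% of WT, and at 59.3% at the final harvest. SNRNP48, a protein of the minor spliceosome, was at 42.9% and 43.8%. RIOK1, an atypical kinase that acts in the maturation of the small ribosomal subunit, was at 56.7% and 54.1%. The highest value of the list at the initial harvest was that of FARS2, a mitochondrial phenylalanyl-tRNA synthetase, at 65.4% (56.4% at the final harvest); it was chosen after its values were seen.

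Mitochondrial proteins were similar, with all 11 fitted genes near 50% and medians of -0.89 and -0.92. MRS2, a magnesium channel of the inner membrane, was at 57.3% of WT initially and at 50.1% at the final harvest. MCUR1, a regulator of the mitochondrial calcium uniporter, was at 50.8% and 54.1%, and ECI2, an isomerase of fatty acid oxidation, at 48.3% and 42.9%. LYRM4, which serves in iron-sulphur cluster assembly, was at 61.8% and 52.9%. LYRM4-AS1, a noncoding RNA gene, had one of the 5 highest values among members at 1 CPM or more (64.4% and 67.6%). Its annotated span overlaps RPP40 and ENSG00000271978 on the other strand, and not LYRM4.

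Chromatin, cell cycle and nuclear proteins were near 50% for 14 of 16 genes, with medians of -0.99 and -0.98. NUP153, a nucleoporin of the nuclear basket, had 157, 165 and 167 CPM in initial WT and 76.7, 87.8 and 80.6 CPM in initial KO. Its final levels were 169, 154 and 166 CPM in WT and 83.1, 74 and 80.1 CPM in KO. The groups stood clear of each other, and NUP153 was at 50.2% and 48.5% of WT, with log2 fold changes of -0.99 (SE 0.0791) and -1.04 (SE 0.0792). GMNN, geminin, which keeps replication origins from being licensed again, was at 54.5% and 51.3%. C6orf62, an open reading frame gene, was at 62.1% and 60%, and both of its intervals lay over -1. The 2 genes of the list outside the 50% range were DEK and MBOAT1, an acyltransferase of membrane lipids that the list also held.

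Cytoskeletal, adhesion and trafficking genes included the most abundant member by count. DSP, desmoplakin, which ties desmosomes to keratin filaments, had 483, 458 and 527 CPM in initial WT and 216, 240 and 215 CPM in initial KO. Final levels were 567, 524 and 570 CPM in WT and 241, 272 and 266 CPM in KO. All 6 KO libraries lay below all 6 WT libraries, at 45.7% and 46.8% of WT. CARMIL1, a regulator of actin capping protein, was at 43.4% and 42.1%. Of the 12 genes of this list, 8 were near 50%, 3 changed place and 1, CAP2, stayed above, with medians of -1.16 and -1.10.

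Secretory and membrane proteins were near 50% for 7 of 10 genes, with medians of -1.07 and -0.82. SSR1, a subunit of the translocon-associated protein complex, had 267 ± 37.6 CPM in initial WT and 133 ± 2.74 in initial KO (49.9%), then 265 ± 22.2 and 135 ± 15.4 CPM (51%). SLC22A23, a member of the organic ion transporter family, stayed a little higher at 59.7% and 61.3%, with both intervals over -1. ELOVL2, an elongase of very long chain polyunsaturated fatty acids, lay furthest down in this list. Its WT level was only 0.436 ± 0.131 CPM initially, and with 3 counts per library as the floor it was at least 5.75-fold lower in KO initially and at least 5.21-fold lower at the final harvest. ELOVL2 met the count rule only with its WT libraries, so these bounds are descriptions.

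**Figure D2:**
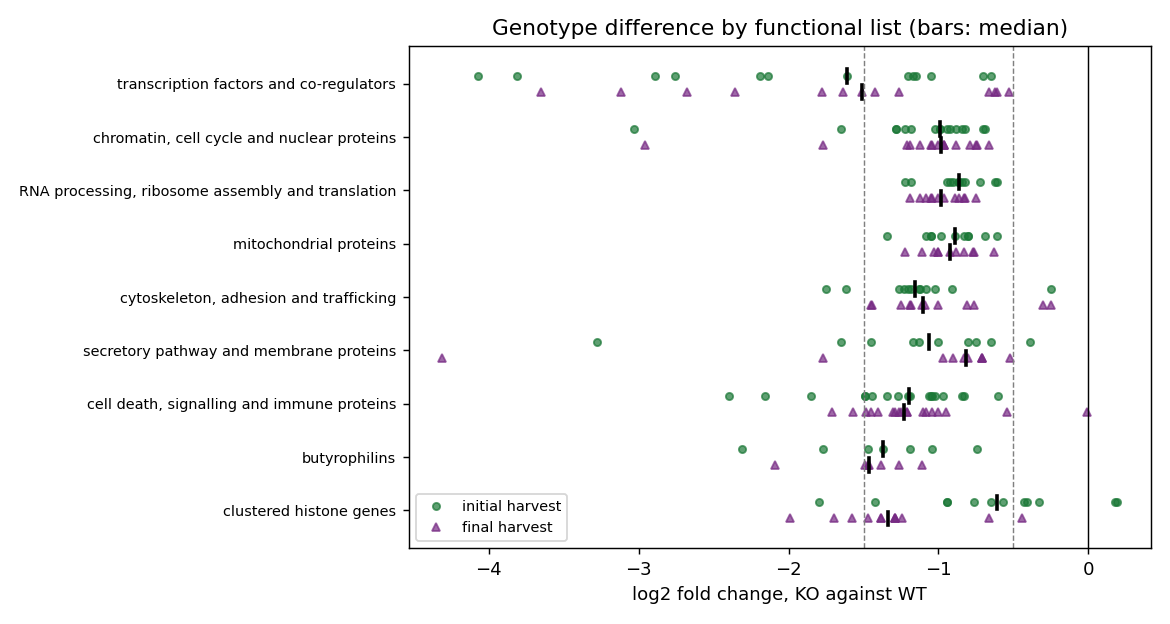
Log2 fold change of KO against WT (horizontal axis) for the fitted members of each functional list (vertical axis) at both harvests, with bars at the medians. Genes of RNA processing and mitochondria sit in a tight band, with medians between -0.98 and -0.87, transcription factors spread down to -4.07, and the histone median moves from -0.61 at the initial to -1.34 at the final harvest.

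Cell death, signalling and immune genes were near 50% in 13 of 18 cases, with medians of -1.19 and -1.23. The list also held TPMT, GMPR and NQO2, genes of metabolic enzymes, of which TPMT and GMPR were near 50% and NQO2 changed place. The serpins of the cluster, inhibitors of proteases of leukocytes and other cells, had similar values initially. SERPINB6 was at 49.2% and 43.3% of WT, SERPINB9, the inhibitor of granzyme B, at 47.9% and 36.6%, and SERPINB1 at 55.8% and 37.9%. RIPK1, a kinase of death receptor signalling, was at 43.9% and 42%, and both its intervals lay under -1. RNF144B, an E3 ubiquitin ligase, went further, to 27.8% and 30.6%.

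Products of butyrophilin genes belong to the immunoglobulin superfamily and in part control gamma delta T cells. BTN2A3P, 1 of the 7 in the stretch, is a pseudogene. Lower in KO without overlap were 136 and 138 of the 155 fitted members, and 18.4% and 17.2% of all genes tested. All 7 butyrophilin genes were lower in every KO library than in every WT library of their harvest. Their medians were -1.37 and -1.46, lower than those of all other lists except the transcription factors, and 5 were near 50%, 1 further below and 1 changed place. BTN2A1 was at 48.7% and 46.3%, BTN2A2 at 44% and 41.9%, and BTN3A2 at 38.8% and 35.6%. BTN3A3 had 13.8, 9.59 and 11 CPM in initial WT and 2.27, 2.06 and 2.63 CPM in initial KO, or 20.2% of WT, and 23.4% at the final harvest. The BTN3A genes are near-identical to each other, so the split of reads among them is uncertain.

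Transcription factors and co-regulators were the list with most members further below. Of 13 genes, 5 were near 50%, 6 further below and 2 changed place, and the medians were -1.61 and -1.51. The 5 near 50% include BMP6, a signalling ligand that the signalling list also held. E2F3, a cell cycle transcription factor, and RREB1, a zinc finger factor of RAS signalling, stood at the other side of the list. E2F3 was at 61.4% and 63.4% and RREB1 at 63.9% and 69%, with all 4 intervals over -1. The 6 further below were FOXC1, SOX4, ATXN1, ZNF391, FOXQ1 and ID4. Of these, FOXQ1 and ID4 were under 1 CPM and met the count rule only with WT libraries, so the count of 6 is given as a description.

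Promoter sequence is shown here for 2 abundant genes that lay further below and for the only member at 1 CPM or more that stayed above, so that their starts can be compared. The windows are the 120 bases before the RefSeq start on GRCh38.p14, written in the direction of the gene: DEK at chr6:18264531-18264650 on the minus strand, FOXC1 at chr6:1609795-1609914 and CAP2 at chr6:17393475-17393594, both on the plus strand. Capitals mark GGGCGG, the core letters of a GC box, or CCAAT, on either strand (CCGCCC and ATTGG are the same letters read from the other strand).
DEK: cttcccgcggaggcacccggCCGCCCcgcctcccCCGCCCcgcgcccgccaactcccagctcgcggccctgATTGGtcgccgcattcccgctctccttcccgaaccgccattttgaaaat
FOXC1: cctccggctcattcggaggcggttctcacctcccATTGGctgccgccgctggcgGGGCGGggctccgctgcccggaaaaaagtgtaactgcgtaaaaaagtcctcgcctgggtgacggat
CAP2: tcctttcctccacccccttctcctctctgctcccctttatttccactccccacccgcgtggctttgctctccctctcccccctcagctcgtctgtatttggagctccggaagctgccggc
A search of both strands found GGGCGG in the window of 57.9% of the 76 matched members near 50% and of 64.7% of the 17 matched members further below, and in 34% of the 27305 RefSeq genes with a window. CCAAT was in 17.1% and 35.3% of these windows (13 and 6 windows), against 21.2% of all genes. The 27305 genes were not filtered by counts in these libraries, while members were. DEK held GGGCGG at 2 places and FOXC1 at 1, each with 1 CCAAT, and the CAP2 window held neither. Windows were available for 118 of the 158 members, and a match describes letters only.

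DEK, a DNA-binding chromatin protein, had 137, 126 and 118 CPM in initial WT and 16.5, 14.4 and 15.9 CPM in initial KO. The final harvest gave 101, 137 and 140 CPM in WT and 17.5, 17.3 and 13.7 CPM in KO. Every KO library lay at a small part of every WT library, at 12.3% and 12.8% of WT (log2 -3.03, SE 0.131, and -2.96, SE 0.131). Its neighbours differed from each other. On the side towards the telomere, KDM1B, a histone demethylase gene, was at 41.2% and 51.5%, and TPMT, a thiopurine methyltransferase gene, at 43.7% and 40.7%, while RNF144B, on the other side, was at 27.8% and 30.6%. All 3 were chosen after their values were seen.

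FOXC1, a forkhead factor of mesoderm, eye and skeletal development, had 72.9, 60.7 and 74.5 CPM in initial WT and 9.08, 11 and 10.6 CPM in initial KO. The final levels were 61.1, 78.8 and 78.7 CPM in WT and 9.56, 7.93 and 7.56 CPM in KO. It stood at 14.7% and then 11.5% of WT, with no overlap of groups. FOXCUT, a noncoding RNA transcribed upstream of FOXC1, was at 29.4% and 13.4%. GMDS-DT, the transcript that starts beside GMDS, had counts in only 1 of the 3 initial KO libraries and in none of the final KO libraries, and was at least 24.1-fold and at least 23-fold lower. GMDS itself, left out by the rule, had 17.1 ± 1.75 CPM in initial WT and 0.00851 ± 0.0147 CPM in initial KO.

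SOX4, an HMG-box factor of progenitor cells and many carcinomas, had 266, 193 and 233 CPM in initial WT and 49.2, 51.5 and 51 CPM in initial KO. Its final levels were 187, 235 and 230 CPM in WT and 79.5, 62.8 and 66.7 CPM in KO. It stood at 21.9% of WT initially and at 32.1% at the final harvest. ATXN1, a transcriptional co-repressor, was at 22.7% and 29.2%. FOXQ1, a forkhead factor of epithelia, had 2.12, 1.53 and 2.43 CPM in initial WT and 0.0504, 0.2 and 0.102 CPM in initial KO, or 5.96%. At the final harvest its KO level was at the floor, at least 3.57-fold lower. ID4, an inhibitor of basic helix-loop-helix factors, was at 13.5% and 15.6%.

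SYCP2L, a paralogue of a synaptonemal complex protein known from oocytes, had 11.5, 8.23 and 9.59 CPM in initial WT and 0.832, 0.777 and 0.715 CPM in initial KO. It was at 7.97% of WT initially and 9.11% at the final harvest. ZNF391, a zinc finger gene close to the inner limit, had 3.17, 2.97 and 3.2 CPM in initial WT and 0.151, 0.226 and 0.281 CPM in initial KO, or 7.13%, and 7.97% at the final harvest. ZNF391 had the lowest value of all members at 1 CPM or more at both harvests, although LINC01012, further in, stayed near 50%. ZNF184, between them, was at 32.7% and 37.3%. ENSG00000288612, a gene with no symbol, was at 14% and 20.5%. MBOAT1, a lysophospholipid acyltransferase, was at 32% and 29.4%.

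**Figure D3:**
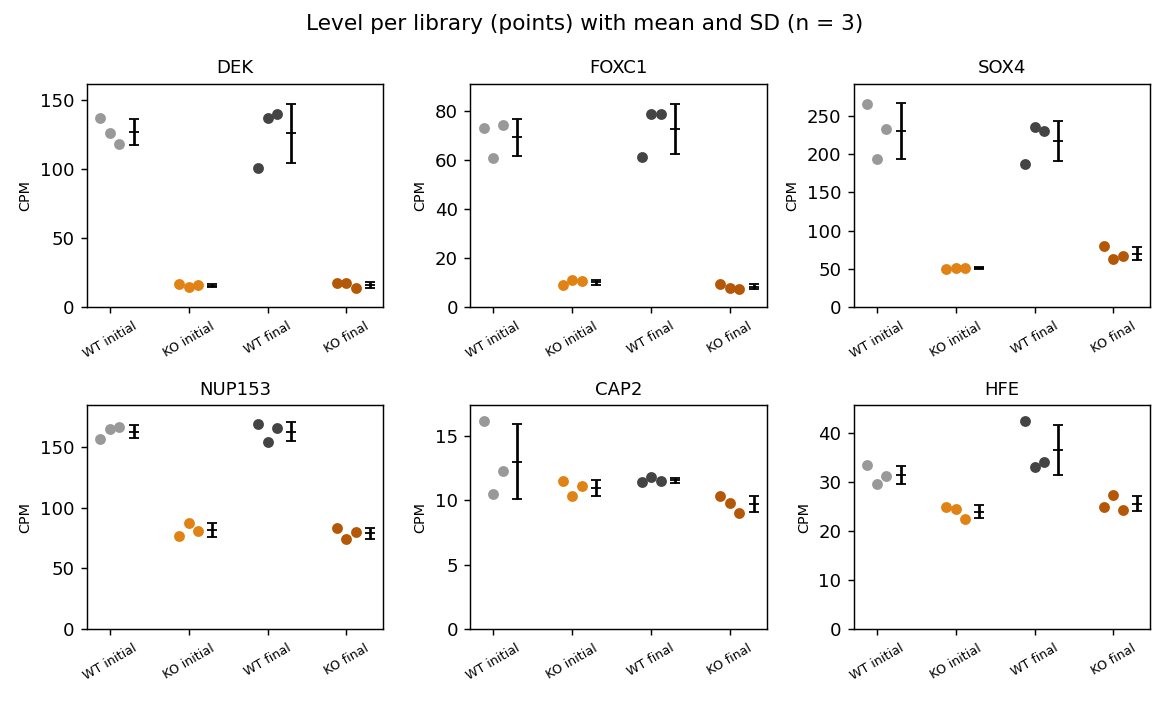
Level in CPM (vertical axis, from 0) of single members in each of the 12 libraries (points) by group, with mean and SD (n = 3). DEK and FOXC1 lie in KO at between 11.5% and 14.7% of WT, NUP153 stays at 50.2% and 48.5%, and CAP2 stays at 84.4% and 84% with overlapping libraries at the initial harvest.

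Of the 12 members at 1 CPM or more that lay further below, FOXC1, ENSG00000288612, SYCP2L, ATXN1, DEK, BTN3A3 and ZNF391 had their whole interval under -1.5 at both harvests. Median WT level at 1 CPM or more was 14 CPM for the genes further below, 22.2 CPM for those near 50% and 8.87 CPM for those that changed place.

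CAP2, an actin-binding cyclase-associated protein, was the single member at 1 CPM or more that stayed above at both harvests. It had 16.2, 10.5 and 12.3 CPM in initial WT and 11.5, 10.3 and 11.1 CPM in initial KO. The final harvest gave 11.4, 11.8 and 11.5 CPM in WT and 10.3, 9.77 and 9.04 CPM in KO. The groups overlapped initially and did not at the final harvest, and the level was 84.4% (log2 -0.25, SE 0.129) and 84% (log2 -0.25, SE 0.131) of WT. CAP2 overlaps 1 gene on the other strand.

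HFE, an MHC class I-like protein that controls iron uptake, changed place between harvests and had, among members at 1 CPM or more, the highest mean log2 fold change over both harvests after the histone gene H1-2 and CAP2. It had 33.4, 29.6 and 31.2 CPM in initial WT and 24.8, 24.5 and 22.4 CPM in initial KO. At the final harvest it had 42.4, 33.1 and 34 CPM in WT and 24.9, 27.2 and 24.3 CPM in KO. The groups did not overlap at either harvest, and the level was 76.2% and 69.8% of WT. The other 7 members that stayed above were noncoding RNAs, pseudogenes or unnamed genes under 1 CPM, and GLRX3P2 was the only one of the 8 whose interval lay over -0.5 at both harvests (log2 0.61, SE 0.383, and 0.50, SE 0.425); it was chosen after its values were seen.

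Change over the 2 months of culture was tested within each genotype, since time played no part in choosing the stretch. In WT cells 18 of the 155 fitted members passed edgeR's quasi-likelihood test at an adjusted p under 0.05, or 11.6% against 6.47% of all genes tested. Of these 10 were higher at the final harvest (3.05% of all genes) and 8 lower (3.42%). LINC02525, 1 of the 10, met the count rule only with its final WT libraries (12, 13 and 20 counts), where it is high. Its call was lost in 7 of the fits that left out 1 library. FOXQ1, 1 of the 8, likewise met the rule only with its initial WT libraries (87, 62 and 97 counts), so both calls are given as descriptions. The WT counts and shares of called members include both, and nothing is read from their distance to the shares of all genes. Without the final WT replicate 2 the number of members called in WT was 10 and without the final WT replicate 3 it was 11. In KO cells 1 member passed, 0.645% against 1.48% of all genes, and it was lower (0.64% of all genes were). The interaction, which asks whether the KO to WT ratio changed between harvests, was passed by 3 members, 1.94% against 1.28%, of which 2 were positive (0.809% of all genes) and 1 negative (0.476%). The shares in KO and in the interaction lay near those of all genes. The KO count was 0 without the initial KO replicate 2 or 3, 3 without the final WT replicate 1 or the initial WT replicate 2, and 2 without the initial WT replicate 1. The interaction count was 1 without the initial KO replicate 2 or 3, the initial WT replicate 3 or the final WT replicate 3, and 5 without the final WT replicate 1 or the initial WT replicate 2. At an unadjusted p under 0.05 the counts were 38, 24 and 30, or 24.5%, 15.5% and 19.4% of the fitted members against 20%, 14.9% and 12.3% of all genes.

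Among the members called in WT, the largest fall was that of FOXQ1, given as a description, since its high initial WT libraries made it a member. It went from 2.03 ± 0.456 to 0.27 ± 0.141 CPM (log2 -2.88, SE 0.326), with all 3 final libraries below all 3 initial ones. TFAP2A, the AP-2 alpha factor of epithelium and neural crest, fell from 21.6 ± 1.27 to 12.6 ± 1.49 CPM (log2 -0.78, SE 0.113, edgeR adjusted p = 0.000524). SERPINB1, an inhibitor of neutrophil proteases, rose from 87 ± 6.86 to 132 ± 17.2 CPM (log2 0.60, SE 0.098, edgeR adjusted p = 0.0014). EDN1, the peptide endothelin 1, also fell in WT (log2 -1.17, edgeR adjusted p = 0.00832). The zinc finger factor HIVEP1 fell as well (log2 -0.46, edgeR adjusted p = 0.0125), a call lost without the final WT replicate 2 or 3 or the initial WT replicate 3. Of the 13 genes of the transcription factor list, 4 fell over time in WT (FOXQ1, TFAP2A, HIVEP1 and ZNF184), where 3.42% of all genes did, and none rose. Nothing is read from this count, because FOXQ1 became a member only through its high initial WT libraries. The ZNF184 call (edgeR adjusted p = 0.0296) was lost without the final WT replicate 1 or 2 or the initial WT replicate 2 or 3. None of the 13 passed in KO or in the interaction.

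PXDC1, a PX domain protein, fell in both genotypes, and the falls did not differ by the interaction test (0.00, SE 0.168, edgeR adjusted p = 0.996). It had 10.2, 10.7 and 9.86 CPM in initial WT and 6.4, 6.15 and 7.32 CPM in final WT (log2 -0.63, SE 0.105, edgeR adjusted p = 0.00148). In KO it had 4.36, 4.84 and 4.54 CPM initially and 2.82, 2.93 and 3.14 CPM at the end (log2 -0.63, SE 0.117, edgeR adjusted p = 0.0109). Its final libraries were below its initial ones in both genotypes, and its KO to WT ratio was 44.6% and 44.8%. The KO call was lost when the final KO replicate 1 or the initial KO replicate 2 or 3 was left out.

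TRIM38, an E3 ubiquitin ligase that dampens innate immune signalling, had the interaction with the smallest adjusted p among members. It had 61.4, 51.5 and 62.4 CPM in initial WT and 40.7, 41.4 and 40.6 CPM in final WT, and 12.5, 13.4 and 13.2 CPM then 14.4, 14.5 and 14.9 CPM in KO. All final WT libraries were below all initial ones (log2 -0.51, SE 0.0826, edgeR adjusted p = 0.0012), while the change in KO, 0.17 (SE 0.088), did not pass (edgeR adjusted p = 0.401). Its level thus went from 22.3% to 35.7% of WT, an interaction of 0.68 (SE 0.121, edgeR adjusted p = 0.00786) that passed with any 1 library left out.

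JARID2, a DNA-binding partner of Polycomb repressive complex 2, had 37.6, 34.4 and 38.4 CPM in initial WT and 29.7, 28.3 and 30.5 CPM in final WT. In KO it had 14.7, 15.8 and 15 CPM and then 17.8, 16.5 and 16.9 CPM. WT fell (log2 -0.32, SE 0.0788, edgeR adjusted p = 0.022), a call lost without the final WT replicate 2 or 3 or the initial WT replicate 1 or 3. The final KO libraries were all above the initial ones, but the KO change of 0.17 (SE 0.0819) did not pass (edgeR adjusted p = 0.348). The level moved from 41.2% to 57.9% of WT (interaction 0.49, SE 0.114, edgeR adjusted p = 0.0458). The interaction call was lost in 10 of the 12 fits that left out 1 library.

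Histone genes of the cluster are shown with their promoters, because 6 of them rose over time in WT cells and their starts share letters. The windows are again the 120 bases before the RefSeq start on GRCh38.p14, in the direction of the gene: H2AC6 at chr6:26124052-26124171 and H2BC5 at chr6:26158002-26158121 on the plus strand, and H1-2 at chr6:26056471-26056590 on the minus strand. Capitals mark TATAAA, the TATA box letters, and CCAAT, on either strand (ATTGG is CCAAT read from the other strand).
H2AC6: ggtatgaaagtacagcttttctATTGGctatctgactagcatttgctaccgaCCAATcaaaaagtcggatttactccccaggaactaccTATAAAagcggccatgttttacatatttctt
H2BC5: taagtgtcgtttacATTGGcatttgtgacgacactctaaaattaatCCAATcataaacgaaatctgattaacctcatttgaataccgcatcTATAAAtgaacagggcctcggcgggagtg
H1-2: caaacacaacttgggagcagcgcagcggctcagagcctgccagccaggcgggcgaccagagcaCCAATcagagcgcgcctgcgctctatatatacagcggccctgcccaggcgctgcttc
A search of both strands found CCAAT in the windows of 11 of the 13 histone members (84.6%) and TATAAA in 7 of 13 (53.8%), against 21.2% and 6.01% of all 27305 genes and 18.1% and 7.62% of the other 105 matched members. GGGCGG was in 1 histone window (7.69%) and in 60% of the others. The H1-2 window held CCAAT at 1 place and no TATAAA.

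The 13 histone members sum to a low level in these poly-A libraries, 22.8, 24.7 and 26.1 CPM in initial WT and 16.6, 18.6 and 17.9 CPM in initial KO. By the final harvest WT had 41.5, 47.3 and 48 CPM and KO 19.4, 19.6 and 20.4 CPM. The WT libraries at the final harvest stood clear of all other groups. The KO libraries of both harvests lay between 16.6 and 20.4 CPM, with all final KO libraries above all initial ones. Over time in WT, 6 of the 12 fitted histone members rose by edgeR's quasi-likelihood test, where 3.05% of all genes did, and none fell. Without single libraries 4 to 7 rose, and 3 of the calls depended on single libraries. H2AC11 was lost without the final WT replicate 2, H2BC12 without the final WT replicate 3 or the initial WT replicate 1, and H4C9 without the final WT replicate 2 or 3 or the initial WT replicate 1 or 3. The list had a median log2 change of 0.79 against 0.01 over all genes tested. H4C8, not among the 6 called, met the count rule only with its final WT libraries (12, 15 and 16 counts), where it is high. The list medians and the sum over the 13 members include H4C8 and are given as descriptions. In KO none passed, with a median of 0.06, and the median interaction was -0.81 with 1 gene, H1-2, past the threshold. Genes of one histone family are near-identical in coding sequence, so the split of reads among them is uncertain.

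H2AC6, a histone H2A gene, had 3.96, 3.85 and 4.5 CPM in initial WT and 7.65, 11.4 and 11 CPM in final WT (log2 1.29, SE 0.152, edgeR adjusted p = 8.43e-05). In KO it had 2.24, 2.83 and 2.76 CPM and then 4.25, 3.8 and 3.49 CPM, a change of 0.56 (SE 0.167, edgeR adjusted p = 0.117). The WT and the KO libraries were each higher at the final harvest, but only the WT change passed, and the interaction of -0.73 did not (edgeR adjusted p = 0.158).

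H2BC5, a histone H2B gene, rose in WT from 1.86, 2.84 and 3.33 CPM to 4.83, 7.48 and 7.35 CPM (log2 1.29, SE 0.2, edgeR adjusted p = 0.000849). Its KO libraries had 1.84, 2.21 and 1.91 CPM and then 2.39, 2.6 and 3.06 CPM, and the interaction of -0.86 did not pass (edgeR adjusted p = 0.218). H2BC5 overlaps 1 gene on each strand.

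H1-2, a linker histone gene, had 5.71, 7.49 and 6.66 CPM in initial WT and 6.78, 7.94 and 7.83 CPM in initial KO, so the groups overlapped at 114% of WT. At the final harvest it had 10.7, 10.6 and 11.9 CPM in WT and 7.32, 6.3 and 7.33 CPM in KO, which did not overlap, at 63.1%. WT rose (log2 0.74, SE 0.119, edgeR adjusted p = 0.00117) and KO did not pass (log2 -0.11, SE 0.12, edgeR adjusted p = 0.732). The interaction of -0.85 (SE 0.169, edgeR adjusted p = 0.0181) was lost in 4 of the 12 fits that left out 1 library: the initial KO replicate 2 or 3, the final WT replicate 3 or the initial WT replicate 3. H3C6, a histone H3 gene, was at 37.4% and 33.4% of WT.

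Histone genes of the same families elsewhere, 9 genes past the limit or on other chromosomes, summed to 12.5, 11.9 and 14.5 CPM in initial WT and 20.5, 22.5 and 20.4 CPM in final WT. In KO they summed to 14.6, 15.3 and 15.6 CPM and then 17.7, 22.9 and 19.4 CPM. The initial KO libraries lay above the initial WT libraries, the final groups overlapped, and in both genotypes all final libraries lay above all initial ones. In WT 5 of the 9 rose over time by edgeR's quasi-likelihood test (3.05% of all genes did) and in KO 1 did (0.837% of all genes), with median changes of 0.83 and 0.27, and none passed the interaction (median -0.54). The 9 include H2BC19P and H2BC20P, pseudogenes by symbol, and both were called in WT. H2BC20P was also the KO call (edgeR adjusted p = 0.0323). It made up a large part of the sums, with 6.51 ± 0.396 and then 10.4 ± 0.502 CPM in WT, and 6.85 ± 0.393 and then 10 ± 1.78 CPM in KO. The WT count was 2 to 4 with single libraries left out: it was 2 without the initial KO replicate 2 or 3, the final WT replicate 2 or 3, or the initial WT replicate 1 or 2, and 3 without the final KO replicate 1, the final WT replicate 1 or the initial WT replicate 3.

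**Figure D4:**
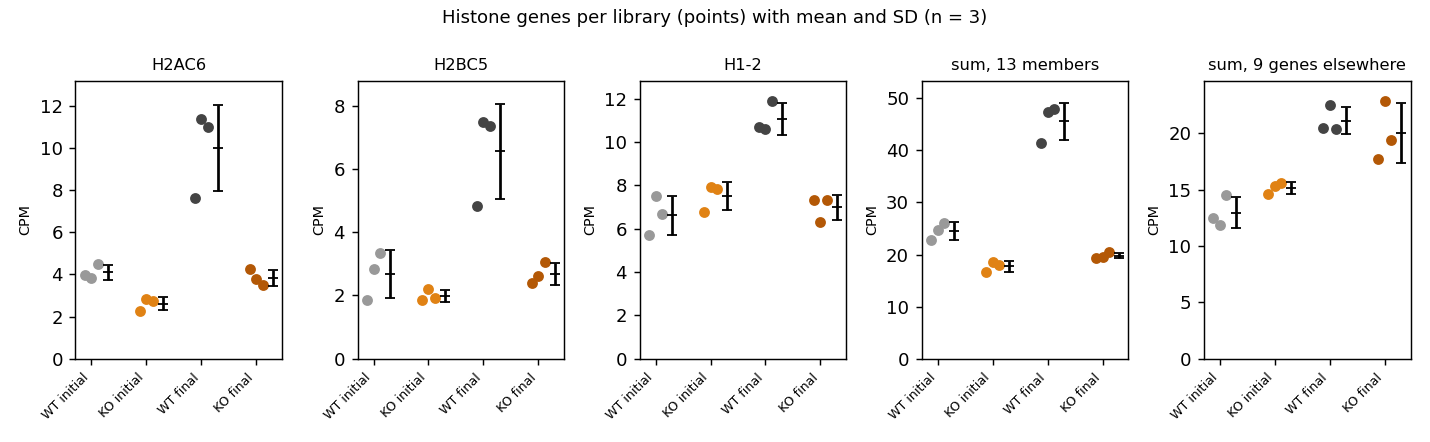
Level in CPM (vertical axis, from 0) of histone genes in each of the 12 libraries (points) by group, with mean and SD (n = 3), and the sums over the 13 members and over 9 histone genes elsewhere. The sum over members goes from between 22.8 and 26.1 CPM to between 41.5 and 48 CPM in WT and from between 16.6 and 18.6 CPM to between 19.4 and 20.4 CPM in KO. Both sums, over members and elsewhere, are higher at the final harvest in both genotypes. The sum elsewhere includes H2BC19P and H2BC20P, pseudogenes by symbol.

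Many products of the stretch act with proteins encoded elsewhere, and the RNA of 72 partner genes was compared, of which 71 were fitted. Besides subunits and binding partners, the 72 include paralogues of members. These are E2F1 and E2F2 for E2F3, KDM1A for KDM1B, and TUBB, TUBB3, TUBB4B and TUBB6 for TUBB2A. At the initial harvest 12 partners differed between KO and WT by edgeR's quasi-likelihood test (5 higher, 7 lower), 16.9% against 19.9% of all genes tested (8.55% higher, 11.3% lower). At the final harvest 6 did (1 higher, 5 lower), 8.45% against 18.5% (8.38% higher, 10.2% lower). The median log2 fold change over partners was 0.06 and -0.02, and single values lay between -0.57 and 0.67 initially and between -0.49 and 0.30 at the final harvest. No partner reached -1. Leaving out single libraries gave 5 to 22 calls at the initial harvest (5 without the initial KO replicate 3 or the initial WT replicate 3, 6 without the initial KO replicate 2, 22 without the initial WT replicate 2) and 2 to 7 at the final one (2 without the final WT replicate 2, 3 without the final WT replicate 3 or the final KO replicate 1 or 2).

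Lower at both harvests were MARS1, DSC2, EXOC6 and TUBB3. MARS1, the methionyl-tRNA synthetase that shares a complex with EEF1E1, was at 550 ± 35.4 CPM in initial WT and 370 ± 14.4 in initial KO (log2 -0.57, edgeR adjusted p = 0.000301) and at -0.49 at the final harvest (edgeR adjusted p = 0.00114). DSC2, a desmosomal cadherin, fell by 0.55 (edgeR adjusted p = 0.00226) and 0.46 (edgeR adjusted p = 0.00698). EXOC6, an exocyst subunit like EXOC2, fell by 0.27 (edgeR adjusted p = 0.0302) and 0.28 (edgeR adjusted p = 0.0236). TUBB3, a beta tubulin similar in sequence to TUBB2A, fell by 0.50 (edgeR adjusted p = 0.023) and 0.45 (edgeR adjusted p = 0.0415). The EXOC6 call was lost without the initial KO replicate 1 or 3 or the initial WT replicate 1 or 3 at the initial harvest, and without the final KO or WT replicate 2 or 3 at the final one. The TUBB3 call was lost without the initial KO replicate 2 or 3 or the initial WT replicate 1 or 3 at the initial harvest. Its final call was lost without any 1 final KO library, the final WT replicate 1 or 2, the initial KO replicate 2 or 3 or the initial WT replicate 3. All 4 changes were smaller than that of the median member.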

How the data were processed

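The authors deposited raw counts per gene, 1 column per library, with no normalization. STAR, Subread with featureCounts, and hg38 are named in the submitters' processing notes, and strand and multi-mapping settings are not given in the sources used here. Of the gene identifiers, 37318 carried a version found in GENCODE 29, all with identical coordinates, so GRCh38 positions were used. A gene broken over 5 lines was left out. Totals ran from 38597809 to 40017561 counts. Genes kept by filterByExpr (18289) were fitted with TMM factors in edgeR (4.0.16, under R 4.3.3 with limma 3.58.1), with 4 group means and robust quasi-likelihood tests, adjusted by Benjamini-Hochberg over all of them. Standard errors were taken from the fold change and its F statistic. The fit was tested on simulated data. Replicates are described as biological, and p-values measure only the spread between these libraries. Same-numbered libraries did not deviate together throughout (18 correlations from -0.358 to 0.238, 6 of them over 0.1), so numbers were not treated as pairs. Some libraries with different numbers went together more closely. Initial WT replicate 1 with final KO replicate 2 had 0.3453, and initial WT replicate 2 with final KO replicate 3 had 0.3875. Initial WT replicate 3 with final KO replicate 1 had -0.0805. Deviations shared between groups are thus not excluded, and the replicate block used the numbers as given. The floor was 3 counts per library; where no library of a group held more, the fold is a lower bound. Floors and intervals cover only counting error or the spread between libraries. Promoter windows came from RefSeq, GRCh38.p14. Members, gene lists, partners and classes were chosen with earlier results of these data known. Genes were named by rule: the 5 lowest and 5 highest members at 1 CPM or more, the 5 most abundant in WT, up to 5 with the smallest adjusted p per time comparison and interaction, the 3 most abundant of each list, both edges, and partners called at both harvests. Other genes named were chosen after their values were seen. Alternatives were other scaling, filters, a replicate block, DESeq2 1.42.0, only the compared groups, and each library left out.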

Additional observations from a re-analysis of the deposited data

Results flagged for a closer look

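The KO to WT ratio of 3 members differed between the initial and the final harvest by a test of the difference itself, the interaction in edgeR's quasi-likelihood model. These are 1.94% of the fitted members, near the 1.28% of all genes tested. Only the TRIM38 call held with any 1 library left out. TRIM38 had an interaction of 0.68 (adjusted p = 0.00786), going from 22.3% to 35.7% of WT, with the WT level falling and the KO level not passing. JARID2 had an interaction of 0.49 (adjusted p = 0.0458), going from 41.2% to 57.9% of WT, a call lost in 10 of the 12 fits that left out 1 library. H1-2 had an interaction of -0.85 (adjusted p = 0.0181), going from 114% to 63.1% of WT, with the WT level rising. The H1-2 call was lost in 4 of those 12 fits. No explanation was tested.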

How the results depend on the processing

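The number of members near 50% (91) was 86 to 95 and the number further below (23) was 21 to 25 with single libraries left out. The median log2 fold change was -1.14 to -1.05 at the initial and -1.12 to -1.08 at the final harvest in those fits, -1.04 for initial values of members at 1 CPM or more, -1.03 at the final harvest with library totals alone and -1.19 for members that overlap no gene. Members called over time in WT (18) numbered 10 to 20 without single libraries and 10 with only the compared groups. Those called in KO (1) numbered 0 to 3 without single libraries, 5 by DESeq2, 5 with no filter and 4 with only the compared groups. Interaction calls (3) numbered 1 to 5, with 7 by DESeq2 and 5 with no filter. Partner calls were 5 to 22 (initial) and 2 to 7 (final). Histone genes elsewhere called in WT (5) numbered 2 to 4 without single libraries, 3 with the replicate block, 3 with no filter, 2 with only the compared groups and 2 with library totals alone. Histone members called in WT (6) numbered 4 to 7. With the replicate block there were 18, 1 and 2 calls in WT, KO and the interaction, and JARID2 missed the threshold (edgeR adjusted p = 0.0757), while its DESeq2 value was 0.00365. The cause of these moves was not tested. For single genes, 62 values lost and 25 gained a call among the alternatives, 4 moved, and 4030 kept their direction and side. Depth limits the 52 fitted members under 1 CPM.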

Other observations

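Members not annotated as protein coding fell into all classes. Of 43 such members, 13 stayed near 50%, 10 lay further below, 7 stayed above and 11 changed place, while protein-coding members were 78, 13, 1 and 22. The 43 include 5 genes with no entry in GENCODE 29, whose type is thus not known here. Most of the 43 were thinly counted, and a difference in class was not tested. DSP-AS1, the antisense neighbour of DSP, was at 33.1% and 21.5% of WT, below DSP at 45.7% and 46.8%. LARRPM was at least 5.33-fold lower initially and at least 5.68-fold lower at the final harvest. These genes were chosen after their values were seen, and DSP-AS1 and LARRPM met the count rule only with their WT libraries.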
